A study of Mus musculus with 4 samples.

Results

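The 10 genes described here, *Bin1*, *Picalm*, *Sorl1*, *Cd33*, *Inpp5d*, *Ptk2b*, *Plcg2*, *Spi1*, *Abi3* and *Mef2c*, are mouse counterparts of genes at human loci associated with the risk of late-onset Alzheimer's disease. They were chosen by name, with earlier results of these data known. The series lists 27487 genes, and all 10 were found in each of the 4 libraries. Their levels were compared between the cell types of the mouse cortex and between Tg2576 and wild-type animals. Tg2576 mice carry the human amyloid precursor protein gene with the Swedish mutation, driven by the hamster prion protein promoter, and form amyloid plaques with age. The animals were heterozygous for the transgene, on a B6;SJL background, or were wild-type littermates, and both genotypes were aged to 24 weeks. Dissociated cortical cells were measured by Drop-seq, a droplet method that tags the 3′ end of each RNA molecule with a unique molecular identifier (UMI). Cells of 9 mice were pooled for each of 4 libraries (female wild-type, female Tg2576, male wild-type, male Tg2576), and the 36 animals cannot be told apart within a pool. With 1 library per sex and genotype, no spread between replicates is available within a sex.

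The proteins fall into 3 groups. BIN1 bends membranes, PICALM recruits clathrin to budding vesicles, and SORL1 sorts the amyloid precursor protein between endosomes and the Golgi. CD33 is an inhibitory receptor for sialic acid. INPP5D (SHIP1) removes a phosphate from the lipid messenger that PI3-kinase makes, and PLCG2 cleaves the precursor of that lipid below receptors with ITAM motifs. PTK2B is a tyrosine kinase activated by calcium, and ABI3 belongs to the actin-regulating WAVE complex. SPI1 (PU.1) and MEF2C are transcription factors. PU.1 is the defining regulator of the myeloid lineage, to which microglia belong, and MEF2C acts in microglia, neurons and muscle. Much of the inherited risk of the disease lies in regulatory regions active in microglia.

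Of the 2 transcription factors among the 10 genes, PU.1 is the one particular to the myeloid lineage, and the promoter windows of the genes were searched for its motif. The MEF2 motif was not searched. The windows run from 250 bases before to 50 after a transcription start (RefSeq, GRCm38.p6), and 6 of the 10 genes have a window in the table used. The longer PU.1 motif GAGGAAGT, read on both strands, was found in 1 of these 6 genes, *Inpp5d*, and in 3.69% of all 27025 genes with a window. The shorter core GGAAGT, which is part of the longer motif, was found in 4 of the 6 genes (*Inpp5d*, *Sorl1*, *Cd33* and *Mef2c*) and in 26.5% of all genes. The 80 bases before the start are shown for *Inpp5d* (chr1:87620232-87620311, plus strand), with the match in capitals. They are set beside *Plcg2* (chr8:117498195-117498274, plus strand), whose window lacks the motif although its RNA, too, was highest in microglia, and beside *Sorl1* (chr9:42124298-42124377, minus strand), whose RNA was higher in astrocytes and oligodendrocytes than in microglia.
Inpp5d: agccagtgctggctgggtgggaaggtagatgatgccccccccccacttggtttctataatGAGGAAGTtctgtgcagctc
Plcg2: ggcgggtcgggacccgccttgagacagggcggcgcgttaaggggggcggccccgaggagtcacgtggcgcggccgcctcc
Sorl1: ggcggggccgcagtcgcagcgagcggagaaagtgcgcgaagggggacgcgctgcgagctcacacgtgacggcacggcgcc
The 3 windows also differed in base composition, with a GC content of 53.7% for *Inpp5d*, 60.0% for *Plcg2* and 72.3% for *Sorl1*. A match to letters is not a binding site, and no binding was measured.

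Total UMIs ranged from 1926857 to 2294296 per library, and 4835 cells were kept after filtering (1044 female wild-type, 1249 female Tg2576, 1010 male wild-type and 1532 male Tg2576). Median UMIs per cell ranged from 909 to 1331.5, and mitochondrial genes took 7.87% to 17.2% of a library's UMIs. Pairs of libraries shared 2 to 4 kept cell barcodes. Clusters were named from markers: 1866 microglia-like cells, 962 endothelial-like, 921 astrocyte-like, 353 oligodendrocyte-like and 163 mural-like cells (pericytes and smooth muscle) formed the 5 types with at least 20 cells in every library. All 13 microglia markers and all 10 oligodendrocyte markers were at least 2-fold higher in their clusters than in other cells. Neurons were few for a cortex, 99 cells in all and 4 in the male wild-type library, while 109 choroid plexus-like and 110 neuroblast- or progenitor-like cells were present. *App*, the mouse counterpart of the transgene, rose in astrocytes, from 214 to 2050 counts per 1000000 UMIs of the type (CPM) in female and from 100.4 to 1526 CPM in male animals (log2 change 3.47 ± 0.16 SE, adjusted p = 1.8e-16, edgeR). The direction matched the genotype labels in both sexes (log2 ratios of 3.26 in female and 3.93 in male libraries). Fits to 3 libraries had to drop the sex term, which alone gave an adjusted p of 0.0093. With the female Tg2576 library also left out the change was 3.14. The difference was not confined to astrocytes. In microglia *App* was at 213 and 297 CPM in female wild-type and Tg2576 libraries and at 209 and 268 CPM in the male ones. In the few macrophages it was lower in Tg2576 (593 to 502 CPM in females, 820 to 649 CPM in males). UMIs of the human transgene and of the mouse gene were not told apart.

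*Bin1* was highest in oligodendrocytes and second in microglia. In oligodendrocytes the wild-type libraries measured 1475 CPM (female) and 1522 CPM (male), and the Tg2576 libraries 1304 CPM (female) and 1661 CPM (male). In microglia the values were 858, 862, 819 and 773 CPM, in the order female wild-type, female Tg2576, male wild-type and male Tg2576, which is kept from here on. The ranges did not overlap, and both lay far above astrocytes, endothelial cells and mural cells, where no library exceeded 63.6 CPM. Microglia were the more numerous cells, so that 61.5% of all *Bin1* UMIs came from microglia and 30.1% from oligodendrocytes. The gene whose profile over the 5 types and 4 libraries was most like that of *Bin1* was *Trf*, encoding the iron carrier transferrin (Pearson r = 0.95 over 20 points that share libraries and cells), followed by *E330020D12Rik* and *Tmcc3* (0.95 and 0.93).

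*Picalm* was highest in microglia but was measured well above 0 in all 5 types. Microglia had 819, 691, 647 and 549.9 CPM in the female wild-type, female Tg2576, male wild-type and male Tg2576 libraries. Mural cells (199.9 to 317 CPM), oligodendrocytes (211 to 323 CPM) and endothelial cells (253 to 280.1 CPM) followed, and these 3 did not differ beyond their spread. Astrocytes, at 83 to 107 CPM, lay below all of them. The 3 genes most like *Picalm* in profile were *Jund*, a subunit of the AP-1 transcription factor, *Rhob*, a small GTPase of endosomes, and *Cttnbp2nl* (r = 0.93, 0.91 and 0.91).

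*Sorl1* was the member with the lowest level in microglia relative to other types. Astrocytes had 126, 93.4, 114 and 96.3 CPM in the order used above, and oligodendrocytes had 98.4, 87.3, 62.4 and 74.2 CPM. These 2 types overlapped. Microglia, at 22.2 to 23.3 CPM, lay below both, and endothelial and mural cells held 4 and 1 *Sorl1* UMIs in all. *Gabbr1*, a subunit of the GABA-B receptor, and *Phgdh*, the first enzyme of serine synthesis, had the profiles most like it (r = 0.96 and 0.95), followed by *Lap3* (0.95).

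Among the 5 types with at least 20 cells in every library, the 5 genes of immune receptors, signalling and the cytoskeleton were all highest in microglia. *Cd33* had 222, 251, 243 and 282 CPM in the microglia of the 4 libraries and at most 26.4 CPM, from 2 UMIs, in any library of the other 4 types. *Inpp5d* had 375, 379.6, 331 and 275 CPM in microglia and at most 23.7 CPM elsewhere. *Abi3* had 313, 315, 348 and 330.0 CPM in microglia and at most 30.4 CPM elsewhere. The *Abi3* locus (chr11:95830072-95842476) overlaps the coding genes *Phospho1* and *Gngt2*, and the counting rule for shared positions is not given in the sources used here, so its level is uncertain to that extent. *Ptk2b* and *Plcg2* rested on far fewer molecules. *Ptk2b* had 41.8, 47.9, 41.1 and 56.7 CPM in microglia, from 22 to 34 UMIs a library. *Plcg2* had 59.7, 65, 28 and 78.3 CPM, from 15 to 47 UMIs, and the male wild-type library was the low one. The closest profiles were those of *Rasal3*, *Cd14* and *Coro1a* for *Cd33* (r = 0.97 each), *Gpr183*, *Hvcn1* and *Tnfaip3* for *Inpp5d* (0.96 each), and *Ly86*, *Ptpn18* and *Pycard* for *Abi3* (0.97, 0.96 and 0.95). Those for *Ptk2b* were *Rasa4*, *Trpm2* and *Clec4a2* (0.99, 0.98 and 0.98), and those for *Plcg2* were *Plod3*, *Camk1* and *P3h2* (0.92, 0.92 and 0.91). For each of the 5 genes the microglial range lay above the ranges of astrocytes, endothelial cells, oligodendrocytes and mural cells.

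Both transcription factors were also highest in microglia, but only *Spi1* was near 0 in the other 4 types. *Spi1* had 233, 265, 277 and 309.97 CPM in microglia and at most 16.4 CPM, from 1 UMI, elsewhere. *Fgd2*, an exchange factor for the small GTPase CDC42, had the profile most like it (r = 0.99), and *Tagap* was close (0.98). *Mef2c* had 1507, 1424, 1131 and 1227 CPM in microglia. Mural cells followed with 589, 822, 515 and 541 CPM and endothelial cells with 256, 215, 331 and 234 CPM. The 3 ranges did not overlap, so that *Mef2c* marked a step from microglia to mural to endothelial cells, above astrocytes and oligodendrocytes, where its ranges overlapped. *Serinc3*, *Btg2* and *Zfp36* had the profiles most like it (r = 0.97, 0.96 and 0.95). In all, 8 of the 10 genes were highest in microglia with no overlap between its libraries and those of the other 4 types, against 10.1% of the 9029 genes with at least 100 UMIs.

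**Figure D1:**
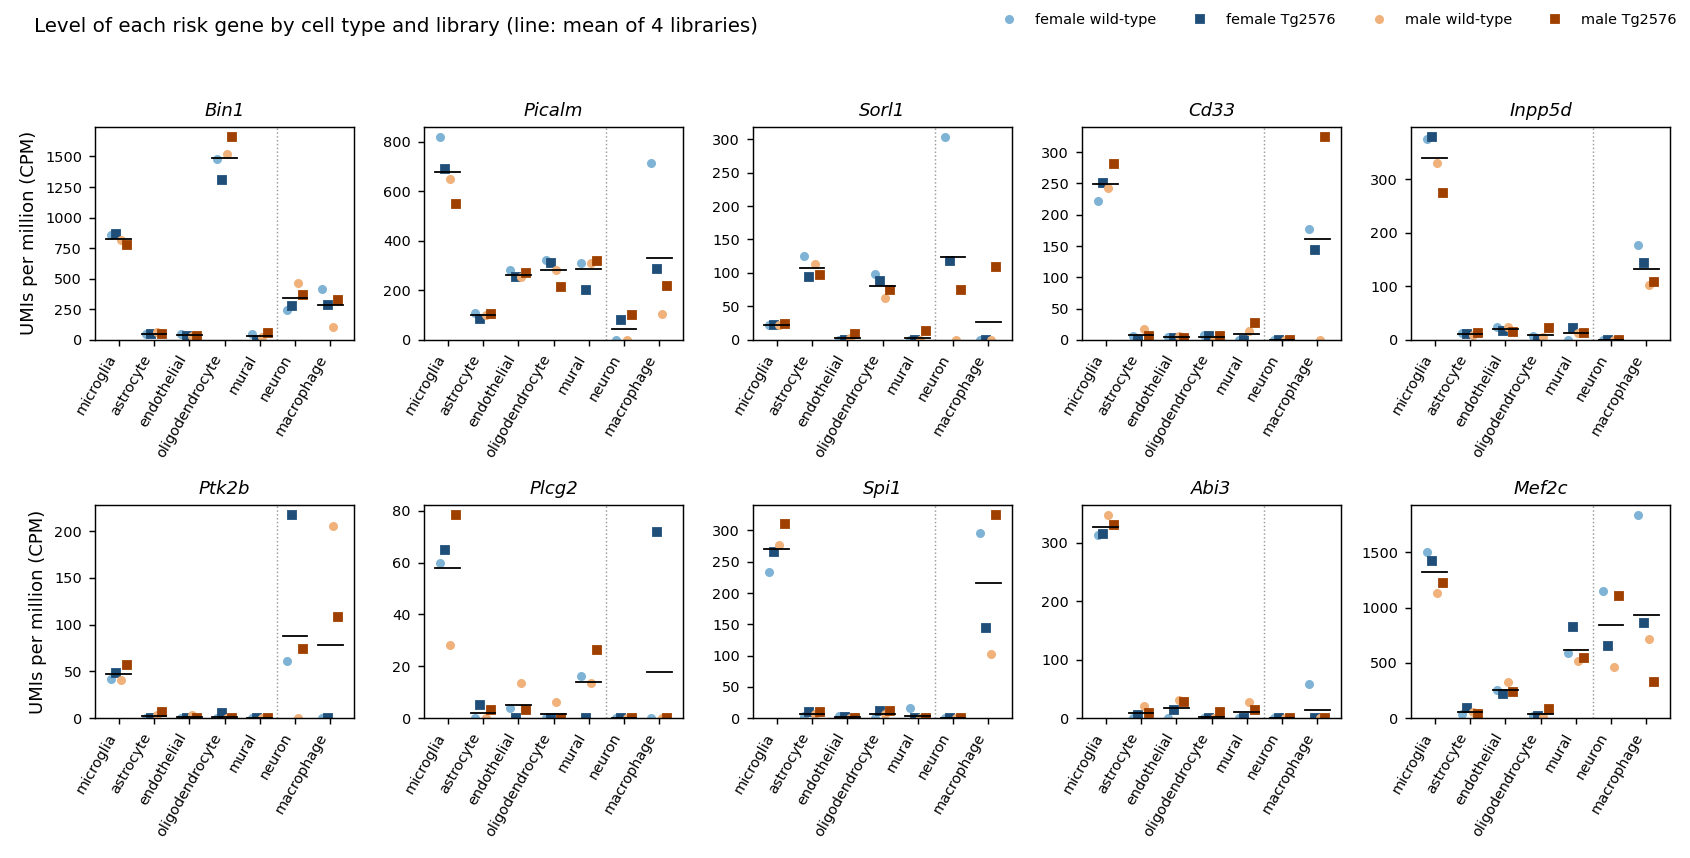
Level of each risk gene in CPM (linear vertical axis, a scale of its own for each gene) in 7 cell types. Points are single libraries, coloured by sex and genotype, lines are means of 4 libraries, and types right of the dotted line had libraries with fewer than 20 cells. *Bin1* peaks in oligodendrocytes and microglia, *Sorl1* is above microglia in astrocytes and oligodendrocytes, and the other 8 genes are highest in microglia among the 5 types left of the line.

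RNA set free during dissociation can enter any droplet, so low levels outside microglia were read against the 13 microglia markers. In astrocytes these markers stood at 1.95% to 3.43% of their microglial level, in endothelial cells at 1.37% to 2.56%, in oligodendrocytes at 1.36% to 4.06% and in mural cells at 1.01% to 3.35%. In astrocytes *Cd33*, *Inpp5d*, *Spi1* and *Abi3* stood inside that range, at 2.93%, 3.34%, 2.72% and 2.65% of microglia. These rested on 9, 13, 8 and 10 UMIs, and whether they came from free RNA was not tested. In oligodendrocytes the 7 genes other than *Bin1*, *Picalm* and *Sorl1* stood inside or below the range. Of these, *Mef2c* had 24 UMIs there and the others 1 to 6, too few to read. *Picalm* exceeded the range in all 4 types, at 14.6% of microglia in astrocytes and 38.9% to 42.1% in the others. *Mef2c* reached 19.6% in endothelial cells and 46.6% in mural cells. *Inpp5d* (5.83%, 25 UMIs) and *Abi3* (5.52%, 24 UMIs) also stood above the range in endothelial cells. *Bin1* exceeded the range in astrocytes (6.16%, 58 UMIs), endothelial cells (4.5%, 47 UMIs) and mural cells (3.89%, 9 UMIs), and *Mef2c* in astrocytes (4.05%, 56 UMIs). The range covers free RNA from microglia only. *Bin1* stood at 180% of its microglial level in oligodendrocytes, and a part from their free RNA was not tested. Nor was a part from other types with a high level tested for *Picalm*, *Mef2c* or *Sorl1*. The other values above a range rested on 1 to 6 UMIs and are too few to read. They were *Ptk2b* and *Plcg2* in astrocytes (3 and 2 UMIs), *Plcg2* and *Sorl1* in endothelial cells (6 and 4 UMIs), and *Cd33*, *Inpp5d*, *Plcg2* and *Sorl1* in mural cells (3, 3, 4 and 1 UMIs).

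**Figure D2:**
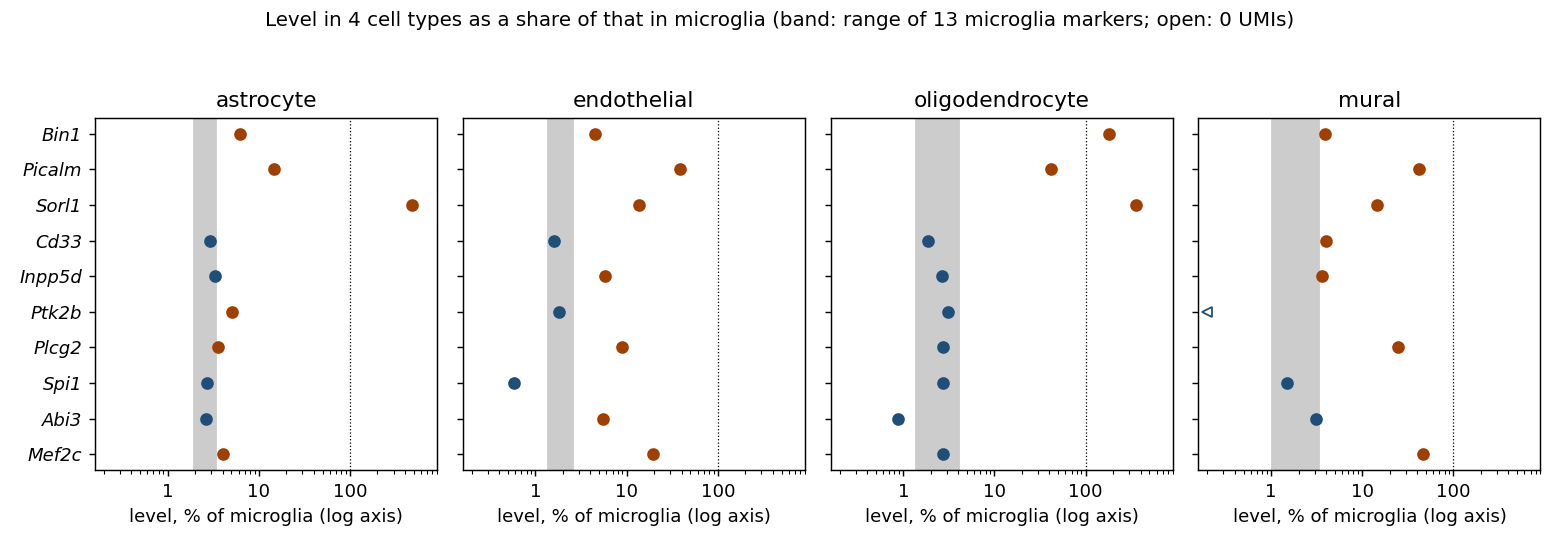
Mean level of each risk gene in 4 cell types as a percentage of its mean level in microglia (horizontal log axis, dotted line at 100%). The grey band is the range of the 13 microglia markers in that type, red points lie above the band, blue points inside or below it, and the open triangle marks 0 UMIs. *Picalm* lies right of the band in all 4 panels, and *Spi1* lies right of it in none.

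Shares of cells with a UMI followed the same order. *Bin1* was seen in 85.3% of 353 oligodendrocytes (exact 95% interval 81.1% to 88.8%, median 1581 UMIs) and 57.7% of 1866 microglia (55.4% to 59.9%, median 1163 UMIs), against 5.1% of astrocytes and 4.16% of endothelial cells. With each cell thinned to 500 UMIs the shares were 49.6% of 337 oligodendrocytes and 33.4% of 1685 microglia. *Mef2c* was seen in 69.2% of microglia, 44.8% of mural cells and 22.6% of endothelial cells, and in 46.1%, 27.2% and 10.2% of thinned cells. *Spi1*, by contrast, was seen in 26.4% of microglia (13.8% thinned) and in 0.651% of astrocytes. *Plcg2* was seen in 7.13% of microglia and *Ptk2b* in 5.57%, so in most microglia no molecule of either was captured at this depth. Intervals cover counting error only.

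Neurons and macrophages were too few for a comparison of libraries, and their values come with exact Poisson intervals over the 4 libraries together. In 99 neurons, *Mef2c* reached 884 CPM (718 to 1076), *Bin1* 313 CPM (218 to 435), *Ptk2b* 134 CPM (75 to 221) and *Sorl1* 125 CPM (68.3 to 209.8). Over the 4 libraries together, *Ptk2b* in neurons lay above each microglial library (41.1 to 56.7 CPM). It was seen in 12.1% of neurons and 5.57% of microglia, and the neuronal UMIs were uneven, 11 of 15 being in the female Tg2576 library. No UMI of *Cd33*, *Inpp5d*, *Plcg2*, *Spi1* or *Abi3* was found in neurons. By a limit of 3 counts, 0 of 99 cells allows up to 3.03% of neurons with a UMI, which at a median of 746 UMIs per cell does not limit the share that express the gene. In 44 macrophages, *Mef2c* reached 1064 CPM (797 to 1392), *Picalm* 382 CPM (230 to 596), *Spi1* 221 CPM (110 to 395) and *Cd33* 161 CPM (69.4 to 317). The 13 microglia markers, several of which macrophages also express, stood at 7.22% to 70.1% of their microglial level in these cells. *Cd33* (64.7%) and *Picalm* (48.7%) lay inside that range and *Mef2c* (70.7%) at its edge, so a part from microglial RNA was not tested. *Abi3* and *Plcg2* were the lowest of the immune genes, with 1 UMI each, and *Abi3* stood below the range at 4.54% of microglia (20.1 CPM, 0.508 to 112, against a lowest microglial library of 313 CPM). Ependymal cells, the ciliated lining of the ventricles, gave the highest *Sorl1* value of any type, 424 CPM (247 to 679) from 17 UMIs in 25 cells. Oligodendrocyte progenitors (102 cells) had *Bin1* at 349 CPM (259 to 461), below each oligodendrocyte library.

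Partner genes of the members were sorted by the type, among the 5, in which each was highest. Among 20 genes of ITAM, ITIM and phospholipase signalling with at least 100 UMIs, 19 were highest in microglia and 18 without overlap. Of 12 myeloid and MEF2 transcription factors, 11 were highest in microglia and 9 without overlap. The WAVE complex had 10 of 13 genes highest in microglia and 5 without overlap. Genes of clathrin endocytosis and the retromer were spread, with 7 of 28 highest in microglia, 8 in oligodendrocytes, 6 in endothelial cells, 4 in mural cells and 3 in astrocytes. Of 34 other Alzheimer risk loci, 17 were highest in microglia, among them *Trem2* (mean 763 CPM against at most 26.2 in the other types), *Grn* (527 CPM) and *Rhoh* (181 CPM). *Apoe* (11415 CPM) and *Clu* (5135 CPM) were highest in astrocytes, *Cd2ap* (1239 CPM) in endothelial cells and *Ank3* (502 CPM) in oligodendrocytes. Over all 9029 genes, 25.2% were highest in microglia and 10.1% were so without overlap. The clathrin and retromer genes, at 25%, were near the first of these shares. Of the 9029 genes, 1521 were highest in oligodendrocytes, 1911 in endothelial cells, 1555 in mural cells and 1765 in astrocytes.

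Microglia formed 2 clusters. One was led by *Il1a*, *Tnf* and *Ccl4*, cytokine genes of an inflammatory response, and held 1027 cells, and the other had *P2ry12*, a purine receptor of resting microglia, among its leading genes and held 839. The Il1a-led cluster made up 58.4% and 69.1% of the wild-type microglia (female and male) and 35.3% and 62.1% of the Tg2576 microglia. None of the 10 genes had ranges apart between the clusters. Of 4076 genes, 5.37% were higher in the P2ry12-led and 6.16% higher in the Il1a-led cluster without overlap. With only 10 genes, shares this small do not set the risk genes apart. The risk genes were also left out of the clustering, while the 4076 genes include some that formed the clusters. *Cd33* was higher in the P2ry12-led cluster in 4 of 4 libraries, by a log2 ratio of 0.29 to 0.92, and with no limit on the mitochondrial share its ranges did not overlap. *Abi3* (0.03 to 0.53) and *Mef2c* (0.04 to 0.15) were also higher there in 4 of 4 libraries. *Spi1* was lower there in 3 of 4 (ratios of -0.26 to 0.19). The interval for counting error excluded 0 in 1 library for *Cd33*, in 1 for *Abi3* and in 0 for *Mef2c* and *Spi1*. The share of the 4076 genes that were higher in the same cluster in 4 of 4 libraries is not given here. Nor is the share with ranges apart when the mitochondrial share was not limited.

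The question of the study design was whether the transgene changes expression in these cells. None of the 10 genes passed the genotype test in microglia, where all 10 were tested and 0.479% of 7508 genes were called (edgeR quasi-likelihood test over the 4 libraries with sex as a covariate, Benjamini-Hochberg adjusted p under 0.05, 1 residual degree of freedom). DESeq2 also called 0 of the 10, and 0 genes in all. On simulated data edgeR called 44.4% of genes with a log2 change of 1 in microglia. A gene that was not called is therefore not shown to be unchanged. At an unadjusted p under 0.05 edgeR marked 1 of the 10, *Plcg2*, against 8.76% of all genes, and DESeq2 marked 0. The median log2 change of the 10 genes was -0.03, and that of all genes -0.01. The 1 residual degree of freedom of a gene is the difference of its genotype ratio between the sexes, and the test adds a spread shared over genes. The p-values and standard errors therefore do not measure the spread between replicate pools. Any other difference between pools cannot be told apart from genotype within a sex. The libraries also differed in the share of Il1a-led microglia given above and in the mitochondrial share of all UMIs (15.4%, 17.2%, 10.9% and 7.87% in the female wild-type, female Tg2576, male wild-type and male Tg2576 libraries). Their part in the ratios below was not tested beyond the values within each cluster and at other mitochondrial limits.

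*Picalm* was lower in Tg2576 microglia in both sexes. Females had 819 CPM in wild-type and 691 in Tg2576 (log2 ratio -0.25, 95% counting interval -0.44 to -0.06) and males had 647 and 549.9 CPM (-0.23, -0.46 to -0.01). It was the only one of the 10 genes with both intervals on the same side of 0. The share of all microglial genes that meet this rule was not counted. Outside the 10 genes, *Fcer1g* (0.17 to 0.63 in females, 0.36 to 0.71 in males) also met it. So did *Ctsh* (0.05 to 0.76 and 0.09 to 0.79). The fitted change of *Picalm* was -0.29 ± 0.15 (SE) with an adjusted p of 0.57 by edgeR, which does not pass. Within the Il1a-led cluster the ratios were -0.41 (-0.69 to -0.13) in females and -0.15 (-0.41 to 0.11) in males, and within the P2ry12-led cluster -0.11 (-0.39 to 0.17) and -0.47 (-0.91 to -0.03). All 4 ratios were below 0. The male interval reached 0 at mitochondrial limits of 10% (-0.45 to 0.004) and of none (-0.43 to 0.01), and both intervals did at 5% or with thinned cells.

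*Plcg2* was higher in male Tg2576 microglia, at 78.3 CPM from 47 UMIs against 28 CPM from 15 UMIs in the male wild-type library (log2 ratio 1.48, 0.62 to 2.43). In females it was 65 CPM from 38 UMIs against 59.7 CPM from 40 UMIs (0.12, -0.56 to 0.8). The male wild-type library was thus the one that stood apart. The fitted change over both sexes was 0.64 ± 0.29 (SE, adjusted p = 0.48, edgeR), and without the male wild-type library and the sex term it was 0.18, against 0.62 without the sex term alone.

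The other 8 genes had intervals that included 0 in both sexes. *Cd33* was higher in Tg2576 microglia in both (0.18, -0.16 to 0.51, in females and 0.21, -0.13 to 0.55, in males), as was *Spi1* (0.19, -0.14 to 0.52, and 0.16, -0.16 to 0.48). *Bin1*, *Abi3* and *Mef2c* had ratios between -0.08 and 0.12, and their intervals kept within -0.37 and 0.3. Within the P2ry12-led cluster alone, male *Bin1* was at 964 CPM in wild-type and 743 CPM in Tg2576 (-0.38, -0.74 to -0.01). *Inpp5d* was at 0.02 in females and -0.27 (-0.58 to 0.05) in males. *Ptk2b* and *Sorl1*, with 22 to 34 and 12 to 15 UMIs a library, had wide intervals. That of *Sorl1* ran from -1.2 to 1.16 in females and from -1.16 to 1.3 in males. These *Sorl1* intervals include a 2-fold change either way.

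**Figure D3:**
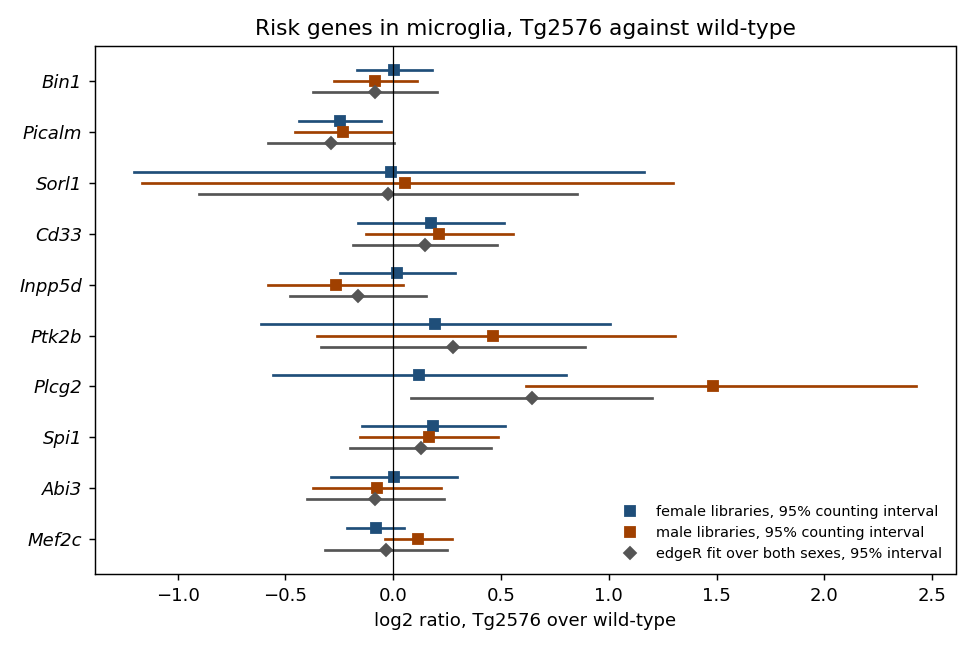
Log2 ratio of each risk gene in microglia, Tg2576 over wild-type (horizontal axis). Squares are single pairs of libraries with 95% counting intervals, and diamonds are the edgeR fit over both sexes with its 95% interval. The *Picalm* squares lie left of 0 with their intervals, only the male square of *Plcg2* lies far right, and the other 8 genes straddle 0.

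**Figure D4:**
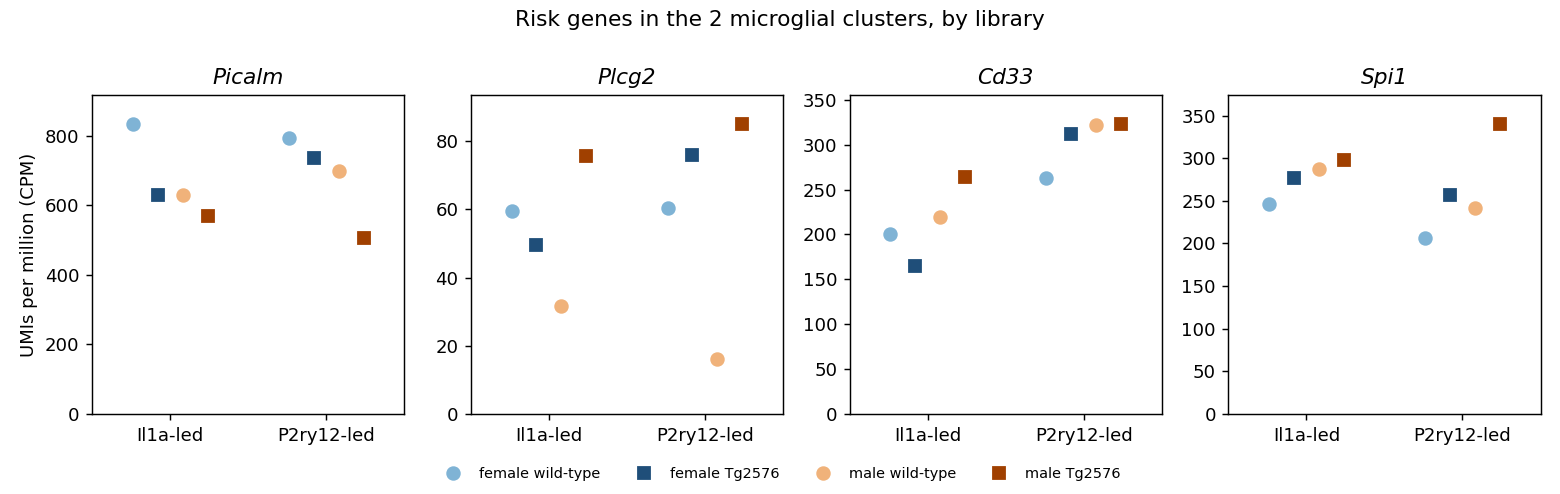
Level of 4 risk genes in CPM (vertical axis from 0) in the Il1a-led and P2ry12-led microglia, one point per library. In each cluster the *Picalm* point of a Tg2576 library lies below the wild-type point of the same sex, and *Plcg2* is lowest in the male wild-type library in both clusters.

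Outside microglia the test covered the genes with enough UMIs. In astrocytes 0 of 4 genes tested were called, against 0.113% of 5307 genes, and *Sorl1* had a fitted log2 change of -0.38 ± 0.3 (SE). In oligodendrocytes 0 of 3 were called, against 0.324% of 3085 genes, and *Bin1*, at its highest level of all types, changed by -0.03 ± 0.19 (SE, 95% interval -0.41 to 0.34). Its ratio was -0.18 (-0.46 to 0.1) in females and 0.13 (-0.12 to 0.38) in males. In endothelial cells 0 of 3 were called, against 0.108% of 5548 genes, and in mural cells 0 of 2, against 0.268% of 1491 genes. At an unadjusted p under 0.05, edgeR and DESeq2 marked 0 of these genes in each of the 4 types, and edgeR marked 7.69% of all genes in astrocytes, 7.16% in oligodendrocytes, 5.71% in endothelial cells and 5.3% in mural cells. Endothelial *Mef2c* was lower in Tg2576 in both sexes, at 215 against 256 CPM in females (-0.26, -0.73 to 0.23) and 234 against 331 CPM in males (-0.5, -0.95 to -0.05), with an adjusted p of 0.86 (edgeR). A cluster of 61 endothelial cells led by *Gbp8* and other interferon-induced genes, 40 of them in the female Tg2576 and 20 in the male wild-type library, was part of this type. Without it the male interval reached 0 (-0.43, -0.89 to 0.04).

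*Mef2c* also had counting intervals apart from 0 in single pairs of libraries of 4 other types, each resting on few UMIs. In oligodendrocytes the male Tg2576 library held 15 UMIs against 2 in the male wild-type library (log2 ratio 2.78, 0.67 to 5.95), and these 15 UMIs came from 4 cells, with 7 in a single cell. In astrocytes the ratio was 1.35 (0.17 to 2.59) in females and -0.74 (-1.98 to 0.44) in males, and 5 of 17 UMIs in the female Tg2576 library came from a single cell. Without the cells called doublets the female astrocyte ratio was 0.43 (-1.23 to 2.03). In choroid plexus cells the male libraries held 11 UMIs in wild-type and 1 in Tg2576 (-2.81, -8.24 to -0.03). In macrophages the female libraries held 31 and 12 UMIs (-1.1, -2.19 to -0.09) and the male ones 7 and 3 (-1.14, -3.73 to 0.99).

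Few partner genes passed the test. Besides *App* in astrocytes, 1 gene of the lists was called, *Wasf2* in oligodendrocytes, the WAVE subunit that activates actin branching. It rose from 6 to 29 UMIs in females and from 14 to 36 UMIs in males (42.2 to 169 CPM and 87.3 to 206 CPM, log2 change 1.5 ± 0.36 SE, adjusted p = 0.016, edgeR). DESeq2 gave an adjusted p of 0.998 for it, and without called doublets edgeR gave 0.44. Dropping the sex term alone already ended the call, and fits to 3 libraries, which cannot hold that term, gave log2 changes of 1.1 to 2.08. In microglia 0 of 28 clathrin and retromer genes, 0 of 22 ITAM and ITIM genes, 0 of 12 WAVE genes, 0 of 12 transcription factors and 0 of 34 other risk loci were called, with median log2 changes between -0.07 and 0.06. By size in both sexes, the ITAM adaptor *Fcer1g* was higher in Tg2576 microglia (439 to 579.6 CPM in females, 836 to 1210 CPM in males, adjusted p = 0.24), and so was the protease *Ctsh* (188 to 249.6 and 217 to 293 CPM, adjusted p = 0.51). *Abca1*, a lipid exporter, was lower (301 to 255 and 174 to 142 CPM, adjusted p = 0.63, all edgeR). In mural cells *Adamts1*, a secreted protease, was at 2469 and 599.7 CPM in female wild-type and Tg2576 libraries and at 1056 and 713 CPM in the male ones (adjusted p = 0.29, edgeR), and endothelial *Adamts1* from 469 to 418 and from 696 to 304 CPM (adjusted p = 0.75). *Fermt2*, an integrin activator, was higher in Tg2576 astrocytes (602 to 768 and 649.5 to 768 CPM, adjusted p = 0.73), and *Ank3*, a scaffold protein of the axon, was lower in Tg2576 oligodendrocytes (569 to 442 and 586 to 411 CPM, adjusted p = 0.67, both edgeR). In mural cells *App* was higher in Tg2576 in both sexes, at 1732 against 1161 CPM in females (0.58, 0.09 to 1.06) and 1743 against 1313 CPM in males (0.41, 0.02 to 0.8), with an adjusted p of 1.0 (edgeR). *Arpc2*, an actin-branching subunit, was at 542 against 449.8 and 694 against 544 CPM in Tg2576 and wild-type endothelial cells (adjusted p = 0.93), and the endosomal GTPase *Rab7* at 167 against 142 and 213 against 182 CPM (adjusted p = 0.97, both edgeR). *Epn2*, a clathrin adaptor, was at 466 against 393 and 371 against 368 CPM in oligodendrocytes (adjusted p = 0.96), and *App* there at 3917 against 3822 and 4739 against 4710.3 CPM (adjusted p = 0.998, both edgeR). The protease *Ctsb* was at 358 against 372 and 503 against 573 CPM in astrocytes (adjusted p = 0.82, edgeR). Apart from *App* in astrocytes and *Wasf2*, none of these genes passed the test.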

How the data were processed

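Per the labels, each library pooled dissociated cortex of 9 mice, and the authors deposited raw UMI counts per gene and cell barcode from Drop-seq. The submitters' notes name mm10 and Seurat 3.1.4, and the aligner is not given in the sources used here. The counts were used as deposited. Cells with 200 to 7000 genes and at most 20% mitochondrial UMIs were kept. They were clustered with Seurat 5.3.0 and sctransform 0.4.2 (2441 variable genes after leaving out 59, among them the risk genes, 19 components, resolution 0.5). A cluster took the name of the list with the largest share of markers at least 2-fold higher. These had to be at least 3 and most of the list. No other list could have more markers among the cluster's 10 leading genes. Clusters of low depth also needed a marker of their own list there. The naming conditions, and the split of 1 mixed cluster into smaller types, were chosen after the clusters were seen. The 10 genes and the gene lists were chosen with earlier results of these data known. Scrublet (scanpy 1.11.5) called 92 doublets (1.90%), which were kept in the main analysis.

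Cells are not replicates, so UMIs were summed per library and type and given per 1000000 UMIs of that type (CPM). The 3′ tags give no level per length, so levels were compared within a gene. Intervals (95%, exact Poisson, conditional binomial or Clopper-Pearson, scipy 1.17.1) cover counting error only. Genotype was tested with edgeR 4.0.16 (filterByExpr, TMM, quasi-likelihood test, sex as covariate, Benjamini-Hochberg over all genes tested, threshold 0.05). The test was checked on simulated data, in which the spread between pools was set and not measured. With 200 genes changed, it called 44.4% of those tested with a log2 change of 1 in microglia. In the other types it called 14.3% to 39.8% of them. With a log2 change of 2 it called 85.2% to 91.9% over all types. Alternatives were DESeq2 1.42.0, other filters, clusterings and scalings. Those leaving out a library, the Gbp-led endothelial cluster or a microglial cluster were chosen after the data were seen. Named genes are the 10 risk genes, list genes that passed the test, list genes with the largest change shared by both sexes, and genes among the 3 closest profiles, of which 1 is not reported here.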

Additional observations from a re-analysis of the deposited data

Results flagged for a closer look

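Among 20 pairs of a risk gene and a cell type with at least 10 UMIs in every library, 2 had genotype ratios that differed between the sexes beyond counting error, which takes no account of the spread between pools. *Plcg2* in microglia had a male minus female log2 difference of 1.36 (95% counting interval 0.31 to 2.42), with 15 UMIs in the male wild-type library and 38 to 47 in the others. *Mef2c* in astrocytes had a difference of -2.08 (-3.63 to -0.54), resting on 11 to 17 UMIs a library.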

How the results depend on the processing

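The number of risk genes called was 0 in every type under every alternative run, and 8 of the 10 were highest in microglia wherever more than 1 type could be compared. Counts of all genes called were unstable, and the cause was not tested. Fits with a library left out also lacked the sex term, so their counts are read beside those without the sex term alone, and no loss is put down to a library. In microglia 36 became 12 at a mitochondrial limit of 5%, 16 at 10%, 2 without a limit, 12 at resolution 0.06, 17 without called doublets, 0 with DESeq2, 20 without a count filter, 0 without the sex term and 0 to 5 with a library left out. In astrocytes 6 became 2 at 10%, 19 without a limit, 3 at 500 genes per cell, 2 with DESeq2, 11 without a filter, 3 without TMM, 1 without the sex term and 0 to 4 with a library left out. In endothelial cells 6 became 0 at 10%, 10 at 500 genes, 0 with all 2500 variable genes, 0 with DESeq2, 15 without a filter, 0 without the sex term and 0 to 15 with a library left out. In oligodendrocytes 10 became 1 at 10%, 1 without doublets, 0 with DESeq2, 4 without a filter, 0 without TMM, 0 without the sex term and 1 to 9 with a library left out. In mural cells 4 became 0 with DESeq2, 0 without TMM, 0 without the sex term and 3 to 6 with a library left out. The 1 of the 10 risk genes with both sexes' intervals on the same side of 0 in microglia, *Picalm*, became 0 at 5%, at 10%, without a limit and with thinned cells. The count of risk genes apart between microglial clusters went from 0 to 1 without a mitochondrial limit. The male *Mef2c* ratio in oligodendrocytes reversed to -0.37 with thinned cells. No paired analysis was possible because each group has 1 library and all carry the same replicate number; the sex term of the test already sets pools of the same sex against each other. Types too thin for 20 cells a library gave no value at 5% (all but microglia) or, for mural cells, at 10% and at 500 genes.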
